A study of Mus musculus with 120 samples.

Results

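The experiment with Ripk4, a protein kinase gene, is described here across all probe sets of the Mouse430_2 array. Its 6 arrays are those whose titles name the Ripk4 embryonic stem (ES) cell clones, and they are 6 of the 120 arrays of the series. Of them 3 are of uninduced cells, kept with tetracycline (Tc, 0 hours without it), and 3 are of induced cells, 39 hours after Tc was withdrawn. The cells are mouse ES cells of the EB3 line (EBRTcH3), grown undifferentiated in medium with LIF, and all 6 arrays, controls included, come from cells that carry the Tet-off transactivator and a puromycin-selected Ripk4 coding sequence at the ROSA26 locus. The transgene ends in a triple FLAG tag and is silent while Tc is present. Each replicate number is taken to be a separate Ripk4 clone, profiled without and with induction, so the 3 numbers are called clones 1, 2 and 3 below. Induction also meant washing, trypsin and re-plating of the cells, and these steps cannot be told apart from the transgene within this experiment. Which arrays are of induced cells is given by the label. The paper followed the Ripk4 clones by quantitative PCR over a time course and took array RNA at peak expression. It also reports a visible band for every protein it tested by western blot, Ripk4 among them. Those measurements are separate from the arrays used here. From the arrays, the paper by its own test found no significant response to Ripk4 and counted it among the genes it called silent. With a more sensitive Bayesian method, which it said could include more false positives, it listed response to virus and endocytosis as enriched terms. All levels are log2 intensities after the robust multi-array average (RMA), so a difference of 1 is a doubling.

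Ripk4 (receptor-interacting serine/threonine kinase 4) has a kinase domain at its amino end and ankyrin repeats at its carboxyl end, and was found as a partner of protein kinase C. It is best known in stratified epithelium, where its loss leaves the epidermis undifferentiated and the skin and oral openings fused. When overexpressed in cultured cells it has been linked to NF-kB, JNK and Wnt signalling. It belongs to the family of RIP kinases, whose other members act in inflammation and in programmed necrosis.

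The 6 arrays had medians between 5.38 and 5.43, and markers of undifferentiated ES cells were among the brightest genes. The probe sets of Pou5f1, Sox2, Nanog, Klf4, Esrrb and Zfp42 had mean levels between 11.08 and 12.98 in uninduced and between 11.07 and 12.94 in induced cells, brighter than at least 95.1% of the 18194 genes measured. The uninduced array of clone 2 stood apart from the others. In it 225 probe sets lay more than 1 from the uninduced mean, against 11 and 15 in clones 1 and 3, and its mean correlation with the other arrays was 0.990, against 0.994 to 0.995. The within-clone difference of clone 2 had an SD over probe sets of 0.27, against 0.17 and 0.19. The 3′ less 5′ signal of the Actb control sets, a sign of RNA quality, ran from 0.30 in that array to 0.56 in the induced array of clone 2, with 0.35 to 0.44 in the other 4. Values of each clone, or values without clone 2, are therefore given for the main genes and lists.

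The transgene was cloned with the primers below, which mark the ends of the sequence that the cells were made to express. The forward primer starts with an AscI site ahead of the start codon and the reverse primer with a PacI site ahead of the last codons read on the other strand. Capitals mark the restriction sites.
Ripk4 forward: GGCGCGCCatggagggcgagggccggggc
Ripk4 reverse: TTAATTAAggtcttgctgcgtcggagcaa

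Ripk4 itself did not pass the test in either of its probe sets. In the brighter of them the levels were 7.65, 6.79 and 7.56 in uninduced clones 1, 2 and 3, and 7.73, 7.91 and 7.92 in the induced ones. The groups did not overlap, but clone 2 gave most of the mean difference of 0.52 (standard error 0.18, limma adjusted p = 0.659), with 1.12 in that clone against 0.08 and 0.36. Without clone 2 the mean difference was 0.22. The dimmer one had 6.43, 5.85 and 6.44 in uninduced cells and 6.26, 6.39 and 6.32 in induced cells, and here the groups overlapped (mean difference 0.08, standard error 0.14, limma adjusted p = 0.920). Its difference was lower than 0 in clones 1 and 3 (−0.17 and −0.13) and 0.53 in clone 2, and turned to −0.15 without clone 2. Differences of this size were also seen when other genes were induced, at their own times. The brighter probe set had 0.54 with Gabpa, 0.48 with Sim2, 0.41 with Pdxk and 0.15 with Hunk. Over the other 18 experiments on this array type it ranged from −1.04 to 0.54. The dimmer one had a larger difference in 9 of those 18 than with Ripk4. Where these probe sets lie relative to the cloned coding sequence was not analysed here, and a probe set outside it would not measure the transgene.

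After induction 8 probe sets rose and 0 fell, 8 of 45101 tested or 0.0177%, in a limma fit blocked on the clone, at an adjusted p (Benjamini-Hochberg) under 0.05. They belong to 4 genes: Tfrc, the transferrin receptor that brings iron into cells, with 5 probe sets, Ier3, an early response gene induced by stress and NF-kB, Ndrg1, a stress-responsive gene raised by low oxygen and by iron loss, and Krt19, a keratin of simple epithelia. At an unadjusted limma p under 0.05 there were 3332 probe sets.

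Tfrc was measured by 6 probe sets, of which 3 are control sets of the array, and all 6 gave mean differences between 0.93 and 1.37. The second brightest of them had levels of 8.78, 8.70 and 8.91 in uninduced cells and 9.89, 9.85 and 10.02 in induced cells. The groups did not overlap, and the 3 clones differed by 1.11, 1.15 and 1.11, a mean of 1.12 (standard error 0.08, limma adjusted p = 0.0287) or 2.18-fold. The brightest set rose by 0.93 (limma adjusted p = 0.0400), and the middle control set had a difference of 1.11 and an adjusted p of 0.052 in limma. Of 13 other genes of iron uptake, export, storage and sensing, listed after these values were seen, none passed. Slc40a1, the iron exporter ferroportin, had 0.48 (limma adjusted p = 0.363), Slc11a2, an iron importer of endosomes, 0.20, the ferritin heavy chain gene Fth1 −0.12, and Aco1 and Ireb2, which encode the iron regulatory proteins, 0.01 and 0.08.

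Ier3 had 7.94, 7.30 and 8.25 in uninduced clones and 9.08, 8.45 and 9.46 in induced clones. The groups did not overlap although clone 2 was lowest in both, and the differences of 1.13, 1.15 and 1.21 gave a mean of 1.16 (standard error 0.08, limma adjusted p = 0.0287).

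Ndrg1 had, in the probe set that rose, 8.78, 7.61 and 9.10 before induction and 9.89, 9.004 and 10.18 after it, with a mean rise of 1.20 (standard error 0.09, limma adjusted p = 0.0350). Here the groups overlapped, because induced clone 2 lay below uninduced clone 3, while the rise within each clone was 1.12, 1.39 and 1.08. The other 4 probe sets of Ndrg1 had differences between 0.88 and 1.15 and adjusted p from 0.0998 to 0.191 in limma.

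Krt19 had 6.92, 5.85 and 7.10 in uninduced and 7.96, 7.04 and 8.05 in induced cells, and rose by 1.06 (standard error 0.08, limma adjusted p = 0.0350), with 1.04, 1.18 and 0.95 in the clones. Clone 2 was again the lowest of each state, and its induced level lay between the uninduced levels of the other clones.

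**Figure D1:**
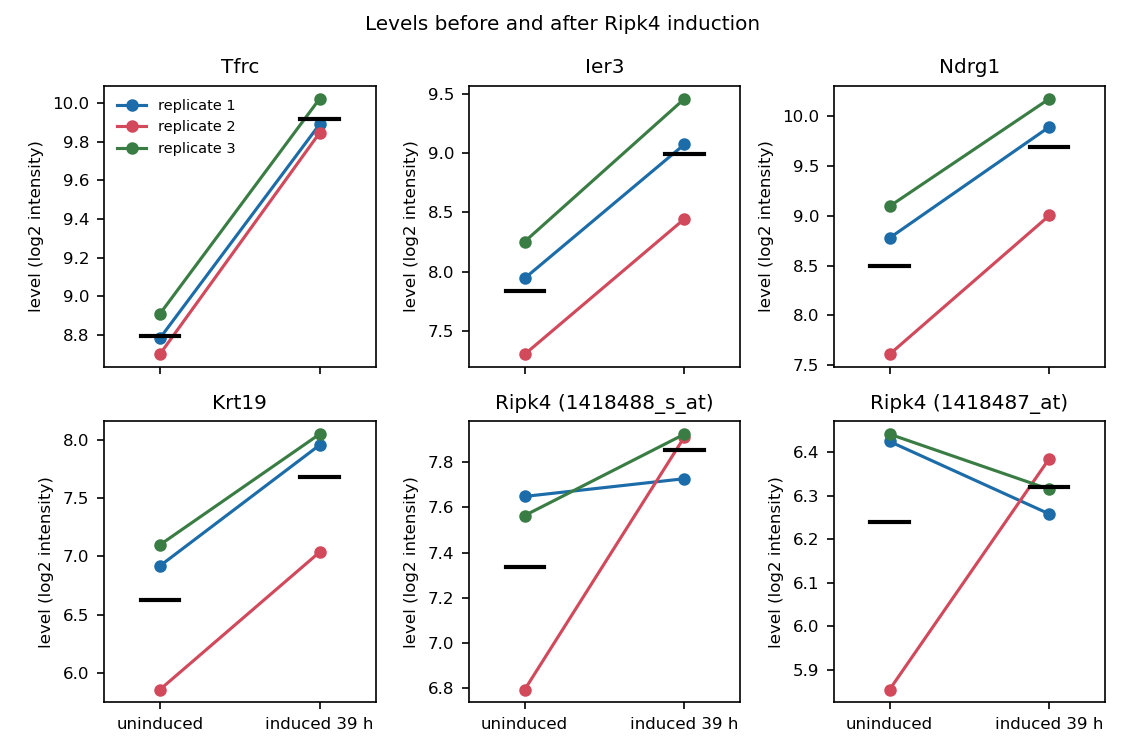
Levels (log2 intensity, with a separate scale in each panel) of the 4 genes that rose and of both Ripk4 probe sets, with 1 line for each clone (replicate) from uninduced to induced and black bars for the means. The lines of Tfrc (second brightest probe set), Ier3, Ndrg1 and Krt19 run nearly parallel, while those of Ripk4 do not. Parallel lines are what the blocked test selects for.

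In limma the 8 calls rest on the clone as a block and on clones 1 and 3, and were kept without clone 2. In a regularized t-test after Cyber-t, which has no block, the 5 Tfrc probe sets passed (Cyber-t adjusted p from 0.00165 to 0.0125). Ier3, Ndrg1 and Krt19 did not pass in it (Cyber-t adjusted p from 0.264 to 0.651). Without the block 0 probe sets passed in limma and without clone 1 or clone 3 again 0, at 1400, 2949 and 1560 with an unadjusted p under 0.05, whereas without clone 2 there were 31 (28 higher), which hold all 8. With 1 spread estimated over all 114 Mouse430_2 arrays, 191 probe sets or 0.424% passed (164 higher), 7 of the 8 among them.

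Several of the largest differences belonged to genes outside the 8 calls. The genes below had the same sign in all clones and an unadjusted limma p under 0.01, but did not pass the adjusted test. Of genes above the median level, 318 met this rule on the higher and 74 on the lower side, and the 15 largest of each side are named, Ndrg1, Ier3 and Tfrc among the higher ones. Egln3, an oxygen-dependent prolyl hydroxylase that marks HIF for degradation, had 8.75, 6.59 and 9.23 before and 10.22, 9.16 and 10.40 after induction (mean difference 1.74, standard error 0.24, limma adjusted p = 0.172). Its clone 2 was the lowest in both states and gave the largest difference, 2.57 against 1.47 and 1.17. Bnip3, a mitophagy receptor, had 11.80, 8.90 and 12.11 against 12.55, 11.48 and 12.71 (1.31, standard error 0.35, limma adjusted p = 0.623). Uninduced clone 2 was far below the others, and the difference was 2.59 in clone 2 and 0.75 and 0.61 in clones 1 and 3.

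Similar patterns, with clone 2 far above the others in difference, were seen for Ndufa4l2, a mitochondrial protein of hypoxic cells (1.47, with 2.80 in clone 2 and 0.92 and 0.68 in the others), the lactate exporter Slc16a3 (1.36, with 2.61 against 0.88 and 0.58), the cyclin G2 gene Ccng2 (1.19, with 2.27 against 0.77 and 0.53) and Lefty2, an inhibitor of Nodal (1.16, with 2.24 against 0.51 and 0.73). Without clone 2 the mean differences were 0.68 for Bnip3, 0.80 for Ndufa4l2, 0.73 for Slc16a3, 0.65 for Ccng2 and 0.62 for Lefty2, and none of these passed. In other genes the 3 clones lay closer together. Ankrd37, a HIF target, differed by 1.14, 1.75 and 0.92 (mean 1.27, limma adjusted p = 0.114), Otx2, a homeobox gene of the primed epiblast, by 1.07, 1.68 and 0.92 (1.22, limma adjusted p = 0.114), and Ackr3, a chemokine scavenger receptor, by 1.11, 1.48 and 0.72 (1.10, limma adjusted p = 0.134). For Adm, the vasodilator adrenomedullin, clone 2 was the smallest (1.14, 0.88 and 1.47, mean 1.16, limma adjusted p = 0.0998), as it was for the amine oxidase Aoc3 (1.19, 0.88 and 1.39, mean 1.15). A2m, a protease inhibitor, had 0.85, 1.45 and 1.09. Without clone 2, Egln3 (1.32), Ankrd37 (1.03), Otx2 (0.996), Adm (1.30), Aoc3 (1.29) and A2m (0.97) passed in limma, with adjusted p from 0.0210 to 0.0341.

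Among the lower genes, Chac1, which degrades glutathione, had 9.90, 10.61 and 10.09 before and 9.34, 8.53 and 9.26 after induction (−1.16, standard error 0.26, limma adjusted p = 0.580). The groups did not overlap, and clone 2 went from the highest to the lowest level. Without clone 2 the difference of Chac1 was −0.70. The neutral endopeptidase Mme had 7.44, 8.67 and 7.19 against 6.09, 7.81 and 6.31 (−1.03, standard error 0.12, limma adjusted p = 0.111), where clone 1 gave the largest difference (−1.36). Without clone 2 Mme passed (−1.12, limma adjusted p = 0.0483). Several other members are factors or enzymes of the stress response to amino acid shortage: Atf3 (−0.75), Nupr1 (−0.64), the transaminase Gpt2 (−0.62) and Atf4 (−0.59). Jdp2, a partner of Jun and ATF factors, had −0.63, and Herpud1, which helps to remove misfolded proteins of the endoplasmic reticulum, −0.62. The rest of the 15 were Dleu7 (−0.71), the secreted protease Htra1 (−0.65), Fam13c (−0.65), titin, Ttn (−0.64), Zfp516 (−0.61), Fetub (−0.60) and Zfp991 (−0.59). Of these 15 lower genes, adjusted p in limma ran from 0.111 to 0.635. Clone 2 set the size of several of them, and without it Nupr1 had −0.34, Jdp2 −0.36, Ttn −0.42 and Dleu7 −0.47.

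**Figure D2:**
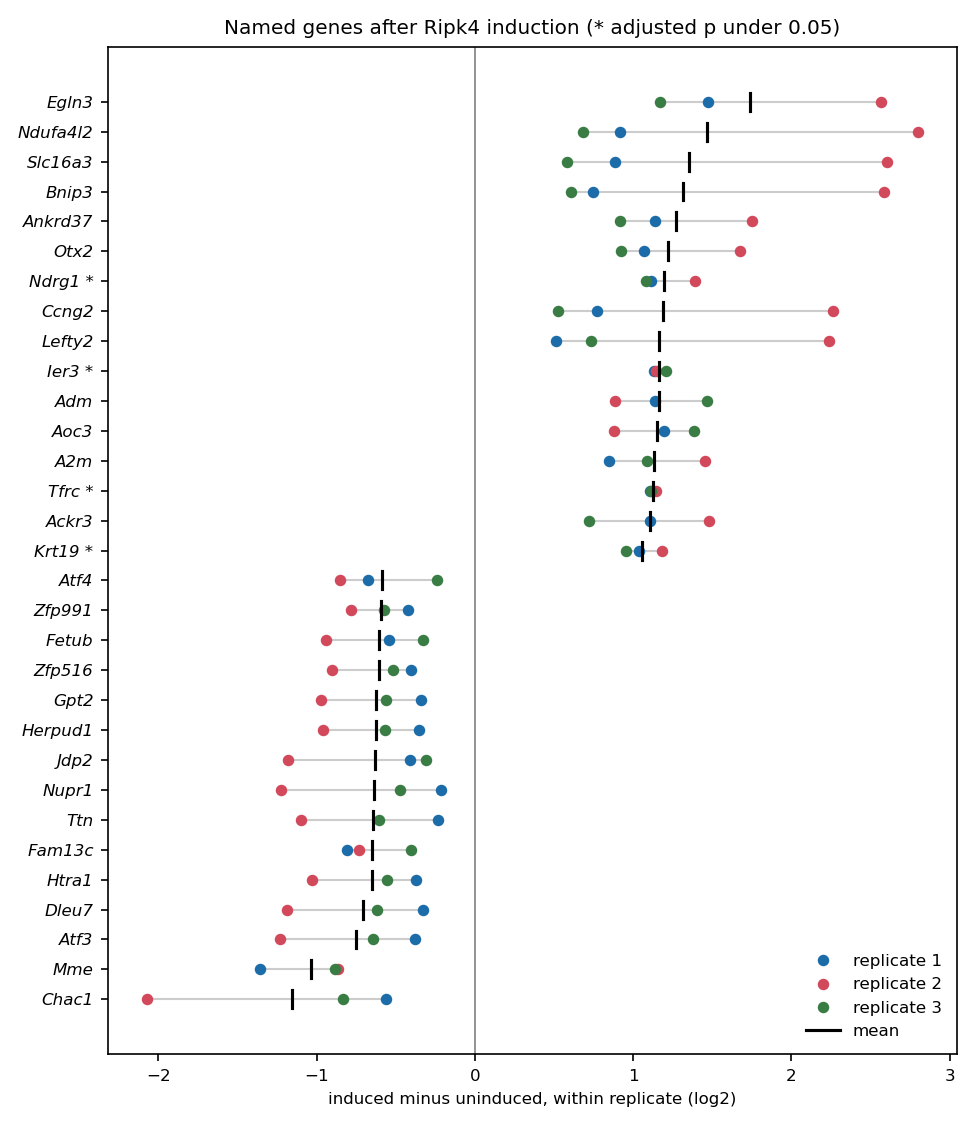
Induced minus uninduced differences (log2) within each clone (coloured points, replicates 1 to 3) and their mean (black bars) for the named genes, with 1 probe set shown for Tfrc. The genes that passed (asterisks) have their 3 clones close together, while Bnip3, Ndufa4l2, Slc16a3 and Ccng2 have clone 2 at 2.27 to 2.80 and the other clones at 0.53 to 0.92. The blocked test selects for such closeness.

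Gene lists were then read with 1 probe set per gene, the brightest, and by counts at an unadjusted limma p under 0.05. Over all 18194 genes 5.64% were higher and 2.95% lower by this rule, and the median difference was 0.01. In bulk RNA a shift in a list can come from a change in the kinds of cells or in the RNA per cell, which cannot be told apart.

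Among the kinases and adaptors nearest to Ripk4, 23 were measured, Ripk4 included, with 6 higher and 0 lower and a median difference of 0.06. The median was 0.01, 0.23 and 0.08 in clones 1, 2 and 3, and 0.05 without clone 2. Uninduced clone 2 held the lowest of the levels for 39.1% of these genes, against 27.0% of all genes. Ripk3, the kinase of necroptosis, had 7.22, 7.42 and 7.26 before and 7.49, 7.74 and 7.64 after induction, with no overlap between groups (0.32, limma adjusted p = 0.585). Prkca, of the protein kinase C family that Ripk4 binds, had 0.28, the JNK gene Mapk8 0.21, its upstream kinase Map3k1 0.22 and the IKK subunit gene Ikbkg 0.30. The Wnt co-receptor gene Lrp6 (−0.04), the Dishevelled genes Dvl1, Dvl2 and Dvl3 (0.15, 0.03 and 0.02), beta-catenin, Ctnnb1 (0.11), and the plakophilin gene Pkp1 (−0.06) all had an unadjusted limma p above 0.05.

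NF-kB targets had a median of −0.03 over 29 genes, with 3 higher and 2 lower, and Ier3 the 1 call among them. The feedback inhibitors Tnfaip3 (5.07, 4.71 and 5.06 against 5.57, 5.08 and 5.19) and Birc3 (7.002, 6.84 and 6.97 against 7.21, 7.28 and 7.17) had higher levels in every induced clone, by 0.33 and 0.28, without passing (limma adjusted p = 0.635 for each). Nfkbie (−0.23) and the survival gene Bcl2l1 (−0.21) were the 2 lower members, and the chemokine gene Cxcl1 had −0.03.

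Targets of Wnt signalling (25 genes, median 0.07) had 5 higher and 1 lower. Axin2, the general feedback target, had 8.01, 7.65 and 8.05 against 8.01, 7.89 and 8.13, a difference of 0.11, and the groups overlapped. Ascl2, a Wnt target of intestinal and trophoblast stem cells, had the largest difference (0.71, with 1.17, 0.25 and 0.71 in the clones, limma adjusted p = 0.580), followed by Lef1 (0.49) and Notum (0.30), which had −0.04 and 0.01 in clone 2. Apcdd1, a Wnt inhibitor, was the lower member (−0.31).

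Genes of epidermis and epithelium (38 genes, median 0.03) had 4 higher and 2 lower, and Krt19 was the 1 that passed. Esrp1, which directs epithelial splicing, had 8.13, 7.96 and 7.77 before and 8.54, 8.56 and 8.31 after induction, with no overlap (0.52, limma adjusted p = 0.288), and the epithelial factor Elf3 had 0.42. The cornified envelope enzyme Tgm1 (−0.56) and the simple keratin Krt8 (−0.22) were lower. Krt8's partner Krt18 had 0.04, and Trp63, Krt5 and Krt14, which define basal keratinocytes, were dim (means between 3.92 and 5.14) with −0.12, 0.08 and 0.11.

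Genes of the hypoxia response had the largest median difference of the 21 lists over the 3 clones, although without clone 1 the sterol list had a larger one (0.49 against 0.45). With the mean of all probe sets of a gene, the hypoxia, glycolysis and sterol lists had nearly equal medians (0.289, 0.286 and 0.275). Of 35 hypoxia genes measured, 23 were higher and 2 lower (65.7% and 5.71%), and their median difference was 0.40, with 0.34, 0.52 and 0.37 in clones 1, 2 and 3 and 0.32 without clone 2. Besides Egln3, Bnip3, Ndufa4l2, Ankrd37 and Ndrg1 they include Bhlhe40, a clock repressor (1.26, with 2.57 in clone 2), the collagen-modifying enzymes Plod2 (0.82), P4ha1 (0.78) and P4ha2 (0.67), and the oxygen sensor Egln1, with 8.29, 7.60 and 8.55 against 9.26, 8.40 and 9.15 (0.79, limma adjusted p = 0.114). Not all targets were higher. Vegfa (−0.27) and Hif1a, the oxygen-regulated factor itself (−0.32), were the 2 lower members, and Car9, a carbonic anhydrase that is a common hypoxia marker, had 0.07.

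All 26 genes of glycolysis had a mean difference above 0, against 52.5% of all genes. By the unadjusted p 12 were higher (46.2%), with a list median of 0.26 (0.24, 0.50 and 0.18 in the clones). Pfkfb3, which makes the activator of phosphofructokinase, had 5.13, 4.73 and 5.91 against 6.48, 5.64 and 6.95 (1.10, limma adjusted p = 0.0701), and the 3 clones differed by 1.34, 0.92 and 1.03. Its groups overlapped through clone 2. The aldolase gene Aldoc had 0.94, Pgm1, which feeds glycogen into glycolysis, 0.81, the glucose transporter Slc2a1 0.66, Pfkp 0.52, Tpi1 0.47 and Pgk1 0.30. Gapdh, near the top of the intensity scale at 13.98 to 14.08, had 0.04.

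Sterol synthesis genes shifted as well, with 15 of 18 higher (83.3%) and a median of 0.37, but this was uneven between clones, 0.13, 0.69 and 0.28, and the median was 0.21 without clone 2. Insig1, a sterol-regulated brake on the pathway, had 8.63, 7.09 and 8.73 against 8.76, 8.31 and 8.99 (0.53), and the squalene epoxidase gene Sqle 0.47. Srebf2, which encodes the factor that drives these genes, had 0.02.

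The amino acid response list, of ATF4 and genes it controls, shifted the other way. Of 39 genes 15 were lower and 0 higher (38.5%), and the median was −0.25 (−0.08, −0.49 and −0.12 in the clones, −0.11 without clone 2). Trib3, a pseudokinase of this response, had 9.12, 10.03 and 9.17 before and 8.83, 8.62 and 8.79 after induction, without overlap (−0.69, limma adjusted p = 0.635). The arginine transporter Slc7a1 had −0.43, the glutamyl-prolyl-tRNA synthetase gene Eprs −0.38, the amino acid transporter Slc7a5 −0.35 and asparagine synthetase, Asns, −0.19.

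These 4 lists, and the cell cycle inhibitors described below, share the position of uninduced clone 2. That array held the lowest of the 6 levels for 74.3% of hypoxia genes, 76.9% of glycolysis genes, 94.4% of sterol genes and 72.0% of cell cycle inhibitors, against 27.0% of all genes, and the highest level for 61.5% of amino acid response genes, against 24.9% of all genes. Its part in the results was not tested beyond the values without clone 2.

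**Figure D3:**
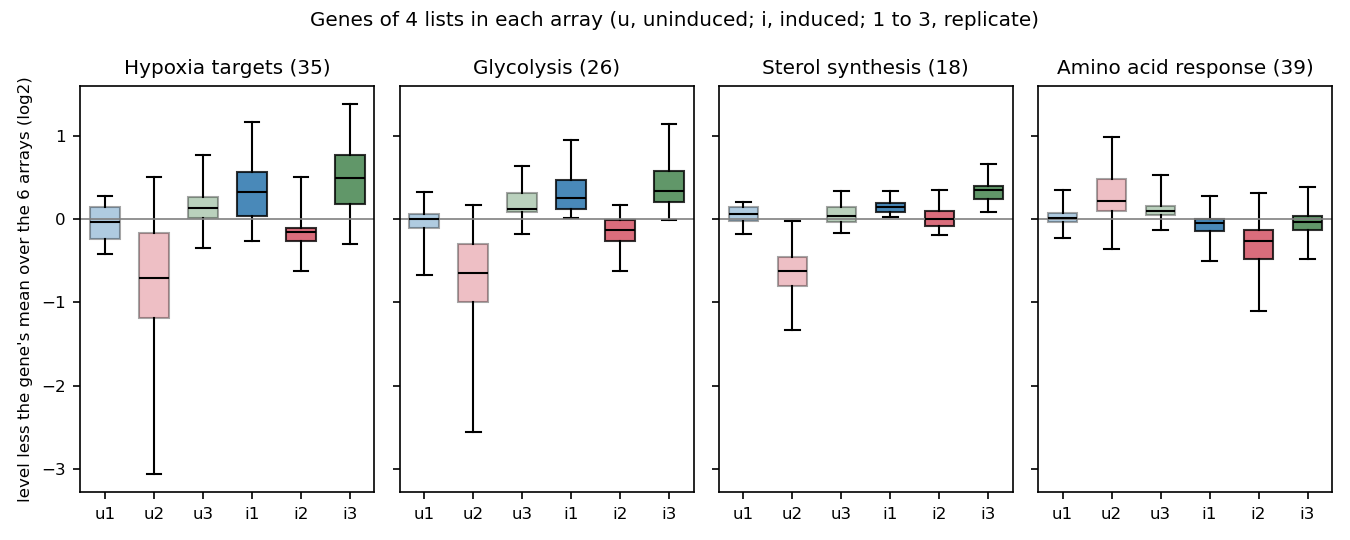
Levels of the genes of 4 lists in each array, less the mean of the gene over the 6 arrays (log2), as boxes from the lower to the upper quartile with the median and whiskers to the lowest and highest gene. In the hypoxia list the median is −0.71 in uninduced clone 2 (u2), and 0.32, −0.16 and 0.50 in the induced clones, each above the same clone uninduced.

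Upstream sequences from RefSeq (GRCm38.p6) are shown for genes of the hypoxia and glycolysis lists and for Tfrc and Ier3, which rose, with the letters ACGTG, the core of the hypoxia response element, in capitals on either strand. The 250 bases before the start site are given for Ier3 (chr17:35821463-35821712, plus strand), Egln3 (chr12:54203875-54204124, minus strand), Bnip3 (chr7:138909507-138909756, minus strand), Ankrd37 (chr8:45999851-46000100, minus strand) and Slc16a3 (chr11:120948817-120949066, plus strand). For Tfrc the 30 bases shown (chr16:32608872-32608901, plus strand) begin 250 bases before the inner of 2 start sites, and the 250 bases before the outer one hold 0 matches. Krt19, Ndrg1, Ndufa4l2, Aoc3, A2m and Ripk4 had no entry.
Tfrc: gggggagcacctcggtaggtgtACGTGcgg
Ier3: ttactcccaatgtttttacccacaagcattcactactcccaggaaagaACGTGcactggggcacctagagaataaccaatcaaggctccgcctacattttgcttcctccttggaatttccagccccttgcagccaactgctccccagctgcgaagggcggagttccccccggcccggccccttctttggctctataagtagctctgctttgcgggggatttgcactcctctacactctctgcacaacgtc
Egln3: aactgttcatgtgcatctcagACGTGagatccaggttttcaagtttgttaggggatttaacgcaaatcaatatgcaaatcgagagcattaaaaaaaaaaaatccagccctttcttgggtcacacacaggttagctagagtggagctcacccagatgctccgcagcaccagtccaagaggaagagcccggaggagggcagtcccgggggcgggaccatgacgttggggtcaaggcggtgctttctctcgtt
Bnip3: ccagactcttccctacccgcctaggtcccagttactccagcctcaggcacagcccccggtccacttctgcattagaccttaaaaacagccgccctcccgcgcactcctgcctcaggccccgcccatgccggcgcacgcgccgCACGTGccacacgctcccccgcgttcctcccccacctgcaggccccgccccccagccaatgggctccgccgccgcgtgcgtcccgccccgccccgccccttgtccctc
Ankrd37: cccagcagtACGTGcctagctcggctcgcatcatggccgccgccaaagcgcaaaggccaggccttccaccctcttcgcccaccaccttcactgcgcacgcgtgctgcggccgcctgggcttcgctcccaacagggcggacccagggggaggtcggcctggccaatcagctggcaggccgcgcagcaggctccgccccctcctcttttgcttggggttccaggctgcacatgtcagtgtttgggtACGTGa
Slc16a3: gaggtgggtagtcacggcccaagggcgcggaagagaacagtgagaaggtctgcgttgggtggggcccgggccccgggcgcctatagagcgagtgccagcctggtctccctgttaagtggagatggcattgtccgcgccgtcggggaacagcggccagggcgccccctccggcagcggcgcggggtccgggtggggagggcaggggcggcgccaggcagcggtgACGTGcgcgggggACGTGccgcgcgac
In Bnip3 the match reads the same on both strands. ACGTG was present before a start site of 17 of the 28 hypoxia genes with an entry (60.7%) and 13 of the 25 glycolysis genes (52.0%), against 4998 of 27025 genes (18.5%). These are matches of letters and not shown to be bound. The sequences printed are a chosen few, all with a match, and genes of the lists without one are not printed. The shares are a property of the lists and not a result of this induction.

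For the lower genes Chac1 (chr2:119350992-119351241, plus strand) and Atf3 (chr1:191183334-191183583, minus strand), capitals mark TGATGNAA, the core of the element bound by ATF4 with C/EBP factors, which is found here on the other strand.
Chac1: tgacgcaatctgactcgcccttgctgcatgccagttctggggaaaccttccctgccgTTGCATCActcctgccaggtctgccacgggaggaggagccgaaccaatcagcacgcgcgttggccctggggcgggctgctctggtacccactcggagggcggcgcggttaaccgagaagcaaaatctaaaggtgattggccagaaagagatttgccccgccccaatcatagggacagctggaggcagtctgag
Atf3: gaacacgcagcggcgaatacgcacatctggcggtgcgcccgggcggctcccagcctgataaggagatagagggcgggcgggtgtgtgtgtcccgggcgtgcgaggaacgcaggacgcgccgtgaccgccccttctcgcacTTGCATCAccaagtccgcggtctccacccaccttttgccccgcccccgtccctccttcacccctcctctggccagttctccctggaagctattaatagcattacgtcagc
It was found in 9 of the 32 amino acid response genes with an entry (28.1%), against 1056 of 27025 genes (3.91%). Chac1 and Atf3 were likewise chosen from those with a match, and this share too is a property of the list.

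**Figure D4:**
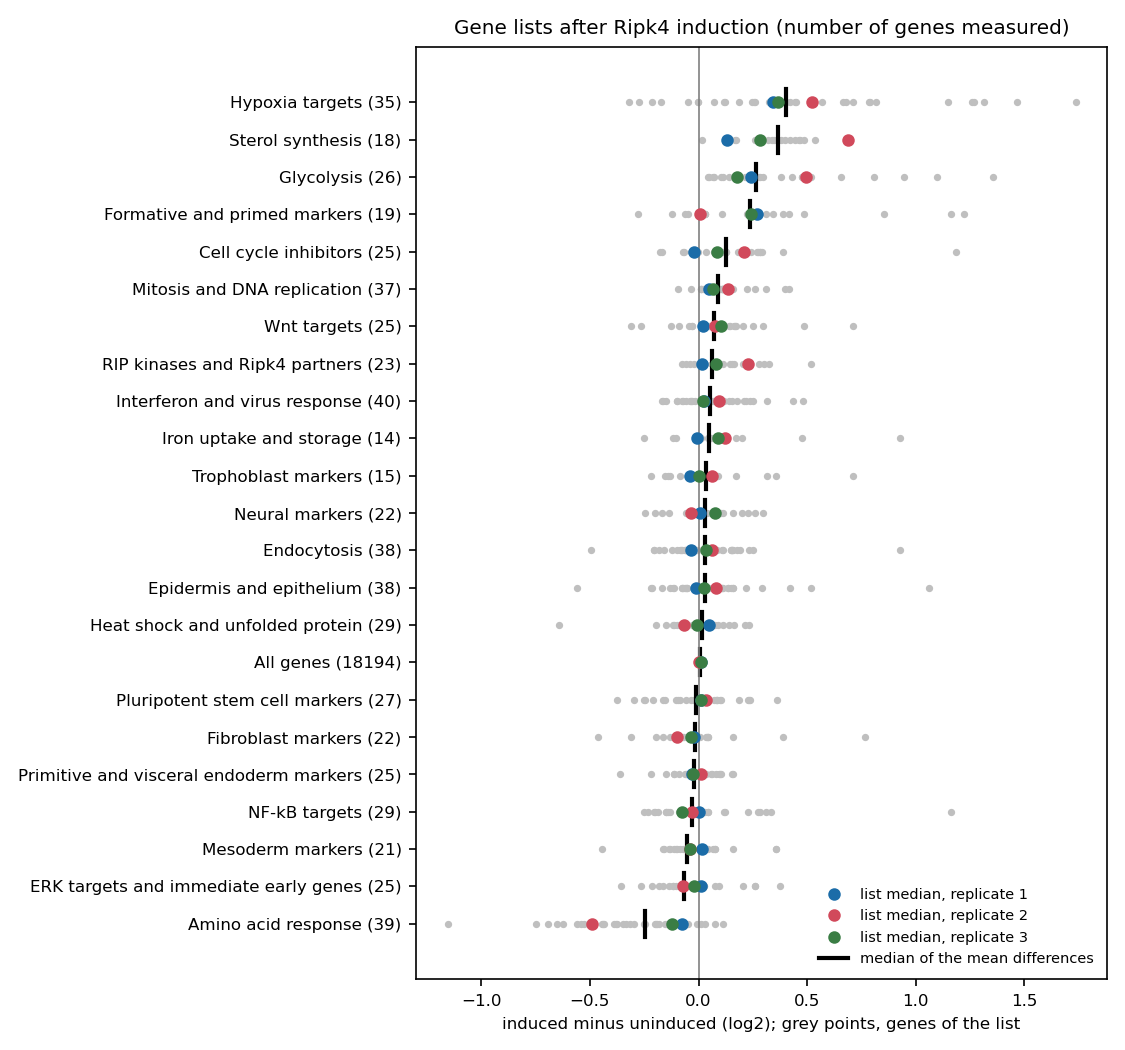
Induced minus uninduced differences (log2) for the 21 gene lists, the iron list added later and all genes. Grey points are genes, black bars the median over genes of the mean difference and coloured points the median in each clone (replicate). The hypoxia, sterol and glycolysis lists lie to the right at 0.40, 0.37 and 0.26, and the amino acid response to the left at −0.25.

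Markers of the undifferentiated state showed little shift. The pluripotency list (27 genes, 2 higher and 2 lower) had a median of −0.01. Nanog was lower in each clone, with 12.31, 12.38 and 12.38 before and 12.20, 12.23 and 12.14 after induction, and its groups did not overlap (−0.17, limma adjusted p = 0.707). Pou5f1 had −0.04. Klf5 (−0.30) and Tbx3 (−0.25) were the lower members and Dppa3, a gene of naive cells and the germ line, was a higher one (0.36).

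Genes of formative and primed cells had 9 of 19 higher and 1 lower, with a median of 0.23. This median was not led by clone 2, whose own median was 0.01 against 0.27 and 0.24. Otx2 led the list, with 5.72, 4.32 and 5.70 against 6.78, 5.99 and 6.62, followed by Lefty2 and Lefty1 (0.85). For Otx2 and Lefty2 clone 2 did give the largest difference, 1.68 and 2.24. Zic5, a zinc finger factor of the epiblast and neural plate, had 0.41, Fgf15 0.39 and the methyltransferase Dnmt3b 0.23, with 0.22, 0.22 and 0.26 in the clones. Fgf5, the defining marker of primed epiblast, was dim, at 4.15 to 4.36, with −0.06, and Foxd3 was the lower member (−0.28).

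Markers of other cell types had medians near 0, and none of their genes passed: −0.02 for primitive and visceral endoderm (0 of 25 higher and 2 lower), 0.04 for trophoblast (2 and 1 of 15), −0.05 for mesoderm (2 and 1 of 21), 0.03 for neural cells (1 and 1 of 22) and −0.02 for fibroblasts (1 and 1 of 22). The median levels of these 5 lists stayed between 5.18 and 6.60 in all 6 arrays. Mitosis and DNA replication genes had small differences mostly in 1 direction, with 35 of 37 above 0, against 52.5% of all genes. Of them 5 were higher by the unadjusted p. Their median was 0.09, with 0.05, 0.14 and 0.07 in clones 1, 2 and 3 and 0.05 without clone 2. Uninduced clone 2 held the lowest of the levels for 43.2% of them, against 27.0% of all genes. Inhibitors of the cell cycle had 4 of 25 higher and a median of 0.12, which was −0.02 in clone 1 and 0.03 without clone 2. Cdkn1a, which encodes p21, had 0.27, with 0.77 in clone 2 and at most 0.04 in the others.

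The remaining lists gave medians of 0.05 for the interferon and virus response (4 of 40 higher, 0 lower, with Irf1 at 0.44), 0.03 for endocytosis (2 and 3 of 38, Tfrc being 1 of the higher), 0.02 for heat shock and unfolded proteins (1 and 1 of 29) and −0.07 for ERK targets and immediate early genes (3 and 2 of 25).

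Hunk, a kinase gene, and Sim2, a transcription factor gene, were also induced for 39 hours, each in 3 clones with their own uninduced arrays, so their responses were set against that of Ripk4 through within-clone differences. In limma 0 of 45100 probe sets, or 0%, passed for Ripk4 less the mean of Hunk and Sim2, with 2888 at an unadjusted p under 0.05 and 1 with trend and robust moderation. The nearest was a probe set of Aire, the regulator of tissue antigens in the thymus, with differences of 0.93, 0.85 and 0.69 in the Ripk4 clones, 0.02, 0.08 and −0.32 in the Hunk clones and −0.49, −0.29 and −0.42 in the Sim2 clones (1.06, limma adjusted p = 0.0508). Otx2 came next (1.19, limma adjusted p = 0.0867), with 0.08 to 0.27 in the Hunk and −0.12 to −0.04 in the Sim2 clones.

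The 4 genes that rose with Ripk4 were not shown to differ from the 39-hour responses of the others. Tfrc, in its brightest probe set, had 0.93 with Ripk4, 0.10 with Hunk and 0.51 with Sim2, and the difference of 0.63 (standard error 0.09) had a limma adjusted p of 0.240. Ier3 had 0.12 with Hunk and 0.78 with Sim2 (0.71, limma adjusted p = 0.578), Ndrg1 0.13 and 0.99 (0.64, limma adjusted p = 0.554) and Krt19 0.48 and 0.56 (0.54, limma adjusted p = 0.578). Against Sim2 alone 8 probe sets passed, or 0.0177%, and against Hunk alone 0 (1886 at an unadjusted p under 0.05). Without Ripk4 clone 2 the comparison with both gave 35.

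Set against the mean of the other 18 genes on this array, at all their times, 23 probe sets or 0.051% passed, 21 of them higher with Ripk4. The test uses the spread of clones within experiments and not the spread between the 18 experiments. It therefore cannot show that Ripk4 lies outside the range of the single experiments. Tfrc led (brightest probe set, 0.93 against 0.21, limma adjusted p = 1.59e-06), followed by Ndrg1 (1.20 against 0.40) and, on the lower side, Mme (−1.03 against −0.25). Ackr3 (1.10 against 0.32), Ak4, a mitochondrial adenylate kinase (0.72 against 0.08), the ubiquitin ligase gene Rnf19a (0.76 against 0.06) and Gata2, which was lower (−0.45 against 0.14), also passed. Ier3 and Krt19 did not (limma adjusted p = 0.704 for each), nor did the other 4 Tfrc probe sets that rose (0.264 to 0.440).

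The experiment with Pdxk, pyridoxal kinase, taken at 48 hours, gave values close in size for most of the genes named here. Unlike Ripk4, Pdxk was among the genes for which the paper reported a significant response. Side by side, with the times differing and no comparison made, the mean differences of Ripk4 and Pdxk were 1.12 and 1.01 for Tfrc (second brightest probe set), 1.16 and 1.60 for Ier3, 1.74 and 2.37 for Egln3, 1.22 and 1.46 for Otx2, −1.16 and −1.22 for Chac1 and −1.03 and −1.15 for Mme. They were 1.20 and 1.45 for Ndrg1 and 1.10 and 1.33 for Ackr3. Ndrg1, Ackr3 and Mme, which passed against the other 18 genes, thus had differences larger in size with Pdxk. The hypoxia list had medians of 0.40 with Ripk4, 0.57 with Pdxk, 0.37 with Sim2 and 0.13 with Hunk, and a range of −0.04 to 0.57 over the other 18 experiments. For glycolysis the medians were 0.26, 0.50, 0.29 and 0.17, and for the amino acid response −0.25, −0.41, −0.07 and −0.06. For sterol synthesis they were 0.37, 0.50, 0.40 and 0.12, so Pdxk and Sim2 lay above Ripk4. All these experiments included the withdrawal of Tc.

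**Figure D5:**
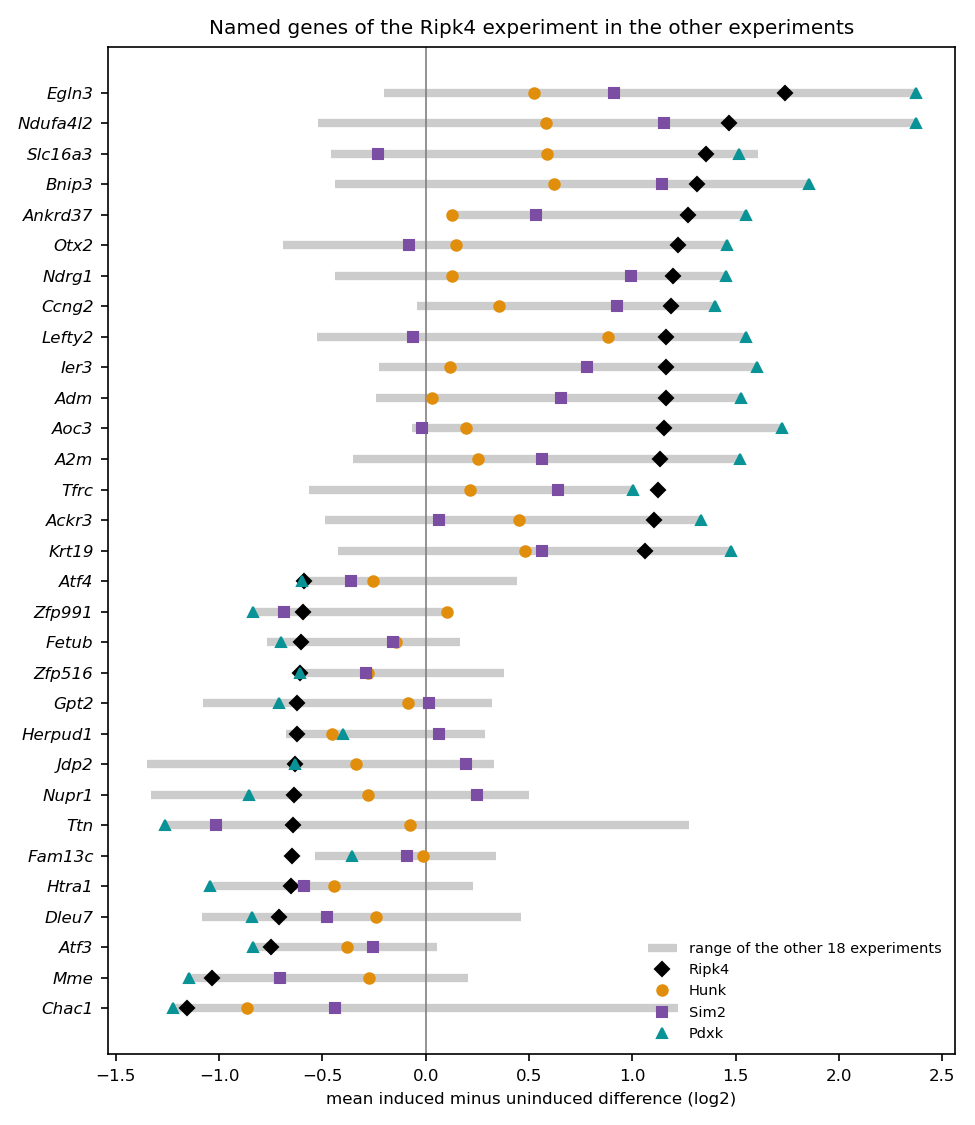
Mean induced minus uninduced differences (log2) of the named genes with Ripk4 (diamonds), Hunk, Sim2 and Pdxk, and the range over the other 18 experiments on the Mouse430_2 array (grey bars). The Ripk4 value lies outside that range for Tfrc (1.12 against at most 1.01) and Fam13c (−0.65 against −0.54 at the lowest) and inside it for the other genes shown.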

How the data were processed

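RNA from 3 Ripk4 clones, uninduced and after 39 hours without Tc, was hybridised to Affymetrix Mouse430_2 arrays. The deposited values are log2 intensities that the authors made from the scanned arrays by RMA (affy package, per the labels, versions not given in the sources used here), normalizing induced and uninduced arrays together. RMA shrinks differences of dim probe sets. The number of arrays limits the precision. P-values and standard errors of the blocked fit rest on how far the within-clone differences vary from clone to clone. limma moves that spread towards a value shared by all probe sets (4.88 prior and 2 residual degrees of freedom). A printed standard error is therefore not the spread of the clones of that gene alone. Arrays were grouped by the gene and state in their titles. Replicate numbers were taken as pairs because the paper profiled triplicate clones in both states, while the labels give only a biological replicate number. After removal of the state means the 2 arrays of a number correlated at 0.332, 0.598 and 0.521. These values come from the same arrays and do not test the pairing. Of 45101 probe sets 34958 have 1 gene in the platform annotation, 932 several and 9211 none, and only the first kind were named.

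limma 3.58.1 in R 4.3.3 (lmFit, eBayes) estimated each probe set's change on induction from the 6 arrays alone, blocked on the clone, with Benjamini-Hochberg adjustment over all probe sets and a threshold of 0.05. The comparison with Hunk and Sim2 used 9 within-clone differences and left out 1 probe set without values for Sim2. Named genes are all that passed, the 15 largest differences per direction among probe sets above the median level of 5.41 with an unadjusted p under 0.01 and 1 sign in all clones, both Ripk4 probe sets and list members. Of 624 entries in 21 lists (7 of markers), 582 matched a gene on the array. The members and lists were chosen with earlier results of these data known. Alternatives were fits without the block, the methods' t-test, a Bayesian-regularized t statistic after Cyber-t (prior weight 10, window of 101 probe sets), 1 fit over 114 arrays, the brighter probe sets, a second quantile normalization, trend and robust moderation, a threshold of 0.1, and leaving out each clone. A fit without the control probe sets of the array was added after seeing the data. The fits were tested on simulated data. Figures were drawn with Python 3.11.15 and matplotlib 3.10.9. Sequences are from RefSeq for GRCm38.p6 and the study's primer list. The table of the other array type was not used here.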

Additional observations from a re-analysis of the deposited data

Results flagged for a closer look

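For 8 probe sets the response to Ripk4 and the response to Sim2, both at 39 hours, differed in the limma test of the difference itself, given here as Ripk4 less Sim2 in log2. It was higher with Ripk4 for Otx2 (1.30, from 1.22 against −0.08), Aire (1.22), Mep1b, a subunit of the protease meprin (1.15), the RNA-binding Hnrnpdl (1.10) and 1700097N02Rik (0.852). It was lower for Dner, a neuronal Notch ligand (−2.25), Map2, a microtubule protein of dendrites (−1.59), and Niban1 (−1). For Dner and Map2 the Sim2 clones differed by 1.47 to 2.62 and 1.48 to 2.03, and the Ripk4 clones by −0.54 to −0.24 and −0.05 to 0.38. For Hnrnpdl the Ripk4 clones lay between −0.15 and 0.03. Jdp2 moved in opposite directions in all clones of both experiments, with −0.41, −1.18 and −0.31 with Ripk4 and a mean of 0.197 with Sim2, and the limma test of that difference gave an adjusted p of 0.193.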

How the results depend on the processing

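The 8 probe sets changed after Ripk4 induction became 0 without the replicate block (pairing of clones), 0 by the methods' t-test (1826 at an unadjusted p under 0.05), 0 among the brighter probe sets in limma (1858 unadjusted), 15 at an adjusted p under 0.1, 5 without the control probe sets of the array (an alternative chosen after seeing the data) and 191 in 1 fit over all Mouse430_2 arrays, and ranged from 0 to 31 on leaving out each clone. Quantile normalization gave 10, trend and robust moderation 9, and the Cyber-t kind of test, which has no block, 8 (7 higher). Of these last, 5 were among the 8, all of them Tfrc. The causes were not tested, except that a clone less leaves 4 arrays. Among the brighter probe sets the 8 lay just past the threshold, with limma adjusted p from 0.0503 to 0.0579. The Ripk4 probe sets passed under no setting. The difference of the brighter one ranged from 0.22 to 0.74 without a clone, and that of the dimmer one from −0.15 to 0.20. The comparison with Hunk and Sim2 gave 0 with and without the block (1276 unadjusted without it), 1 with trend and robust moderation, 2 at an adjusted p under 0.1, 8 against Sim2 alone, 23 against the other 18 genes, and 0 to 35 on leaving out each Ripk4 clone. The 8 probe sets that rose and the 27 others named for the size of their difference kept their direction in all settings tried (list members were not refitted one by one), and all 8 calls were lost in the 5 settings that gave 0. The hypoxia list median was 0.289 with the mean of all probe sets of a gene, beside 0.286 for glycolysis and 0.275 for sterol synthesis.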
